A study of Zea mays with 12 samples.

Results

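Hybrid maize embryos of the cross B73xMo17 were compared with embryos of Mo17, the inbred line that gave their pollen. The members were taken by the genotype in the sample titles: 3 arrays of B73xMo17 and 3 arrays of Mo17, which are 6 of the 12 arrays of the series, read over 17621 probe sets. Maize crosses are conventionally named seed parent x pollen parent, which makes B73 the mother and Mo17 the father of B73xMo17, although the labels do not state which parent was which. The other arrays, 3 of the reciprocal hybrid Mo17xB73 and 3 of the inbred B73, shared the estimate of spread and placed single genes relative to the reciprocal hybrid and the seed parent. All plants were grown in a field, all embryos were taken at 19 days after pollination, and the labels give no transgene or treatment for any group. Samples with the same replicate number were collected on the same date. How many embryos or ears went into a sample is not given in the sources used here.

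A B73xMo17 embryo carries an allele of each gene from B73 and an allele from Mo17, while a Mo17 embryo carries only Mo17 alleles. Maize inbreds differ in regulatory sequence and in which genes they hold, so a gene can be far more active in one parent than in the other. Embryos of this stage lay down globulins, oil-body proteins and proteins of desiccation tolerance, while the neighbouring endosperm fills with zeins, the main storage proteins of the kernel, and with starch.

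Levels are given as log2 of the Affymetrix signal after quantile normalization, so that a difference of 1 is 2-fold. Each transcript sequence on the array is read by several short probes, which together form a probe set. The medians of the deposited signals ran from 198.0 to 313.8 on the B73xMo17 arrays and from 194.5 to 273.1 on the Mo17 arrays. After log2 transformation, arrays of the same genotype correlated across probe sets at r of 0.969 to 0.974 within B73xMo17 and 0.97 to 0.973 within Mo17, and at 0.944 to 0.949 between them. No array stood apart from the others of its genotype. The label of embryo tissue was set against marker genes. All 10 embryo markers had a mean above the 25th percentile of all values (log2 4.78, used below as a floor) in at least 1 of the 2 genotypes, and their median level was 10.6 in B73xMo17 and 9.87 in Mo17. All 16 markers of starchy endosperm were also above that floor in at least 1 genotype, with median levels of 12.25 in B73xMo17 and 11.6 in Mo17, so the tissue labelled embryo also gave signals of endosperm storage genes in both genotypes. Of 24 photosynthesis genes, 11 lay under the floor in both.

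About as many transcripts were higher in the hybrid as were lower, but the large differences ran mostly upward. Of 17621 probe sets, 3931 (22.3%) differed between B73xMo17 and Mo17 at an adjusted p under 0.05, of which 1924 (10.9%) were higher and 2007 (11.4%) were lower in the hybrid. Among the higher ones the median difference was 0.8, and among the lower ones it was -0.54, against a median of -0.06 over all probe sets. The number at least 2-fold apart, after every value under the floor was set to it, was 631 higher (3.58%) and 242 lower (1.37%). At least 4-fold apart were 211 higher and 13 lower, and at least 8-fold apart were 90 higher and 2 lower. The split between directions depends on the scaling: 48.9% of the calls were higher with quantile normalization, 38.0% with each array centred on its median, and 80.5% with the values as deposited, where 986 were higher and 239 lower.

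**Figure D1:**
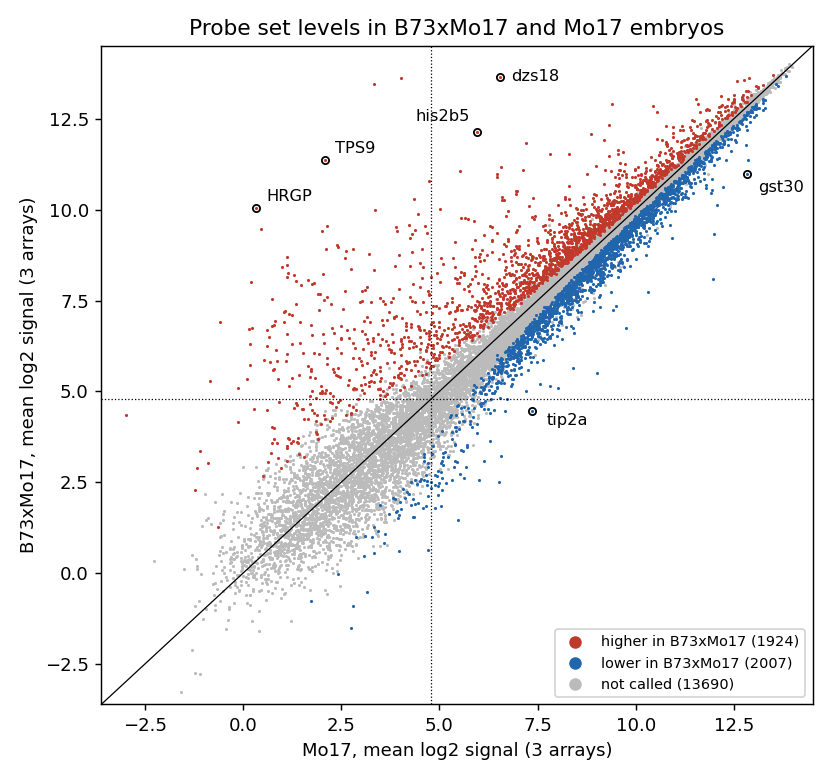
Mean log2 signal of each of 17621 probe sets in B73xMo17 (vertical axis, 3 arrays) against Mo17 (horizontal axis, 3 arrays), with the equal line solid and the floor at 4.78 dotted. Points called higher in the hybrid (1924) reach far from the line, up to dzs18, TPS9, his2b5 and HRGP, while the 2007 called lower stay closer to it.

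**Figure D2:**
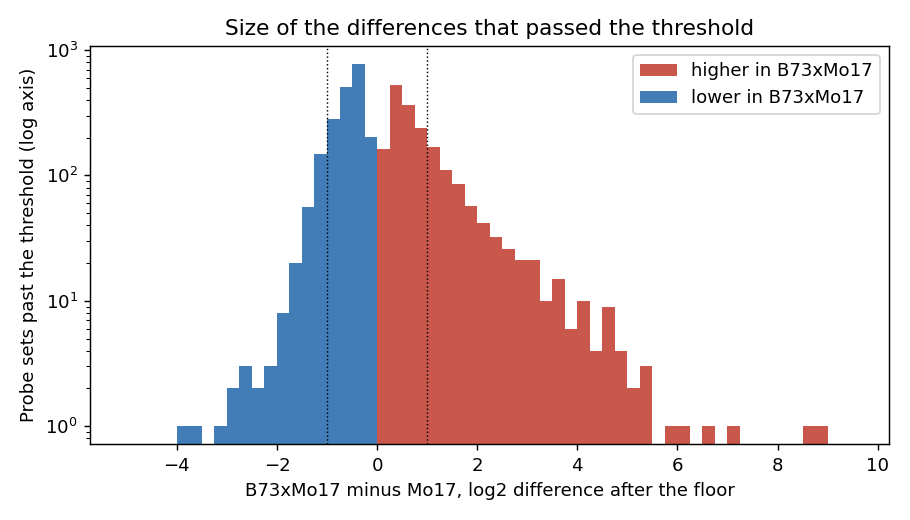
Number of probe sets past the threshold by the size of the B73xMo17 minus Mo17 difference after the floor (log2, bins of 0.25, counts on a log axis), with dotted lines at a 2-fold difference. Of the called probe sets 631 lie beyond 2-fold on the higher side and 242 on the lower side.

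The 90 probe sets that were at least 8-fold higher in the hybrid had a median level of 9.35 in B73xMo17 and 4.43 in Mo17, and 53 of them had a Mo17 mean under the floor. Their median was 9.22 in Mo17xB73 and 10.05 in B73. The 242 probe sets at least 2-fold lower had medians of 6.53 in B73xMo17 and 7.82 in Mo17, beside 6.95 in Mo17xB73 and 5.57 in B73. In these 2 sets the hybrid median lay between those of the inbreds. For the 13 probe sets at least 4-fold lower it did not. Their medians were 5.65 in B73xMo17, 9.01 in Mo17, 7.97 in Mo17xB73 and 6.31 in B73. That set was picked for low hybrid levels against Mo17, and its members differed. Most had a hybrid mean between those of the inbreds, as did the one with the largest loss (8.10 in B73xMo17, 11.96 in Mo17, 7.07 in B73). The rest lay below both inbreds, as did the one with the next largest loss (5.50 in B73xMo17, 9.01 in Mo17, 6.61 in B73). Differences were called less often among dim probe sets: 4.61% of the dimmest 4406 by mean level over the 12 arrays passed, against 26.5%, 30.3% and 27.9% in the 3 brighter groups of 4405. The 3 hybrid and 3 Mo17 values did not overlap for 3865 of the 3931 called probe sets, and for 6632 (37.6%) of all 17621.

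Only a small part of the probe sets could be named. The platform annotation gave 975 genes with a usable name, and with the brightest probe set standing for each gene, 259 of them (26.6%) differed, 140 higher and 119 lower. Of the 90 probe sets with the largest gains, 10 had a gene. Where 182 genes had several probe sets, 73 had at least 1 call, 22 had 2 or more calls that ran the same way, and 5 had calls in opposite directions (cpi2, glct1, pdc2, tgz15 and ubc7, named here after their values were seen). For the other 46 only 1 probe set passed.

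After the floor the named gene with the largest gain was dzs18, which encodes a delta zein, a sulfur-rich storage protein. Its log2 signal was 13.70, 13.58 and 13.63 in B73xMo17 and 6.61, 6.68 and 6.36 in Mo17. The hybrid values were near the top of the array's range, and the groups were far apart. The difference was 7.09 ± 0.1 (SE, adjusted p = 2.1e-14), or 136-fold as measured. The other 3 probe sets of dzs18 were also higher, by 2.12, 9.59 and 10.10, of which the last 2 had Mo17 means under the floor (4.02 and 3.34).

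The histone gene his2b5, for a protein of the nucleosome core, was next among genes well above the floor in both genotypes. It read 12.22, 11.98 and 12.19 in B73xMo17 and 6.08, 5.61 and 6.21 in Mo17, with no overlap. The difference of 6.16 ± 0.12 (adjusted p = 8.09e-13) is 71.8-fold. By their brightest probe sets the other 3 genes of the histone list did not pass, so 1 of 4 was higher and 0 were lower, with a list median of -0.05. A dimmer probe set of his1, a gene of this list, was called lower (-0.34, adjusted p = 0.0235). With arrays centred on their medians, 1 gene passed as lower. Core histones come in gene families of similar sequence, and the array annotation does not say how far the his2b5 probe set separates the family's members.

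TPS9 and HRGP were high in the hybrid and under the floor in Mo17, so the size of their fold is uncertain. TPS9 read 11.40, 11.34 and 11.33 in B73xMo17 and 3.76, 3.48 and -0.99 in Mo17. HRGP, a hydroxyproline-rich glycoprotein of the cell wall, read 10.00, 9.74 and 10.40 in B73xMo17 and 2.76, -0.88 and -0.89 in Mo17. The hybrid arrays agreed closely for both, while the Mo17 arrays scattered below the floor. As fitted the differences were 9.28 ± 0.85 for TPS9 (adjusted p = 3.29e-06) and 9.72 ± 0.7 for HRGP (adjusted p = 2.94e-07). After the floor they were 6.57 and 5.26, which is at least 95.2-fold and at least 38.4-fold. Single Mo17 arrays moved the fitted sizes, from 7.71 without replicate 3 up to 10.11 without replicate 1 for TPS9 (9.96 without replicate 2), and from 9.08 without replicate 3 up to 10.93 without replicate 1 for HRGP (9.10 without replicate 2). The other HRGP probe set was higher by 6.79, with Mo17 again under the floor.

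Of the other 8 leading genes, 7 read above the floor in every sample. HMT-2, a homocysteine methyltransferase, averaged 9.16 ± 0.04 in B73xMo17 and 5.91 ± 0.18 in Mo17 (SD, n = 3 each), a 9.5-fold difference. The small heat shock gene hsp18a averaged 8.90 ± 0.17 in B73xMo17 and 6.08 ± 0.23 in Mo17, a 7.08-fold difference. Opaque2 (o2), the bZIP factor that activates many zein genes in the endosperm, averaged 8.79 ± 0.32 in B73xMo17 and 6.04 ± 0.29 in Mo17, which is 6.74-fold, with hybrid values from 8.46 to 9.09 and Mo17 values from 5.87 to 6.37. The second probe set of o2 missed the threshold, at 7.55 in B73xMo17 and 6.44 in Mo17 (adjusted p = 0.057).

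The cellulose synthase CesA-4 was 5.24-fold higher in the hybrid, the prohibitin phb3 4.79-fold, the ABC transporter MRP2 4.49-fold and the aquaporin nip3a 4.18-fold, with adjusted p from 2.33e-08 to 7.69e-07. The second probe set of CesA-4 was higher too, by 3.57, and that of MRP2 lay under the floor in both genotypes and did not pass. The safener-induced gene saf1 read 7.48, 7.73 and 7.48 in B73xMo17 and 4.10, 4.56 and 1.77 in Mo17, where all 3 values lay under the floor, for a gain of at least 6.86-fold. Its fitted difference of 4.09 became 3.22 without Mo17 replicate 3. In none of the 12 leading genes did the 3 hybrid values overlap the 3 Mo17 values, as the rule for naming them required.

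**Figure D3:**
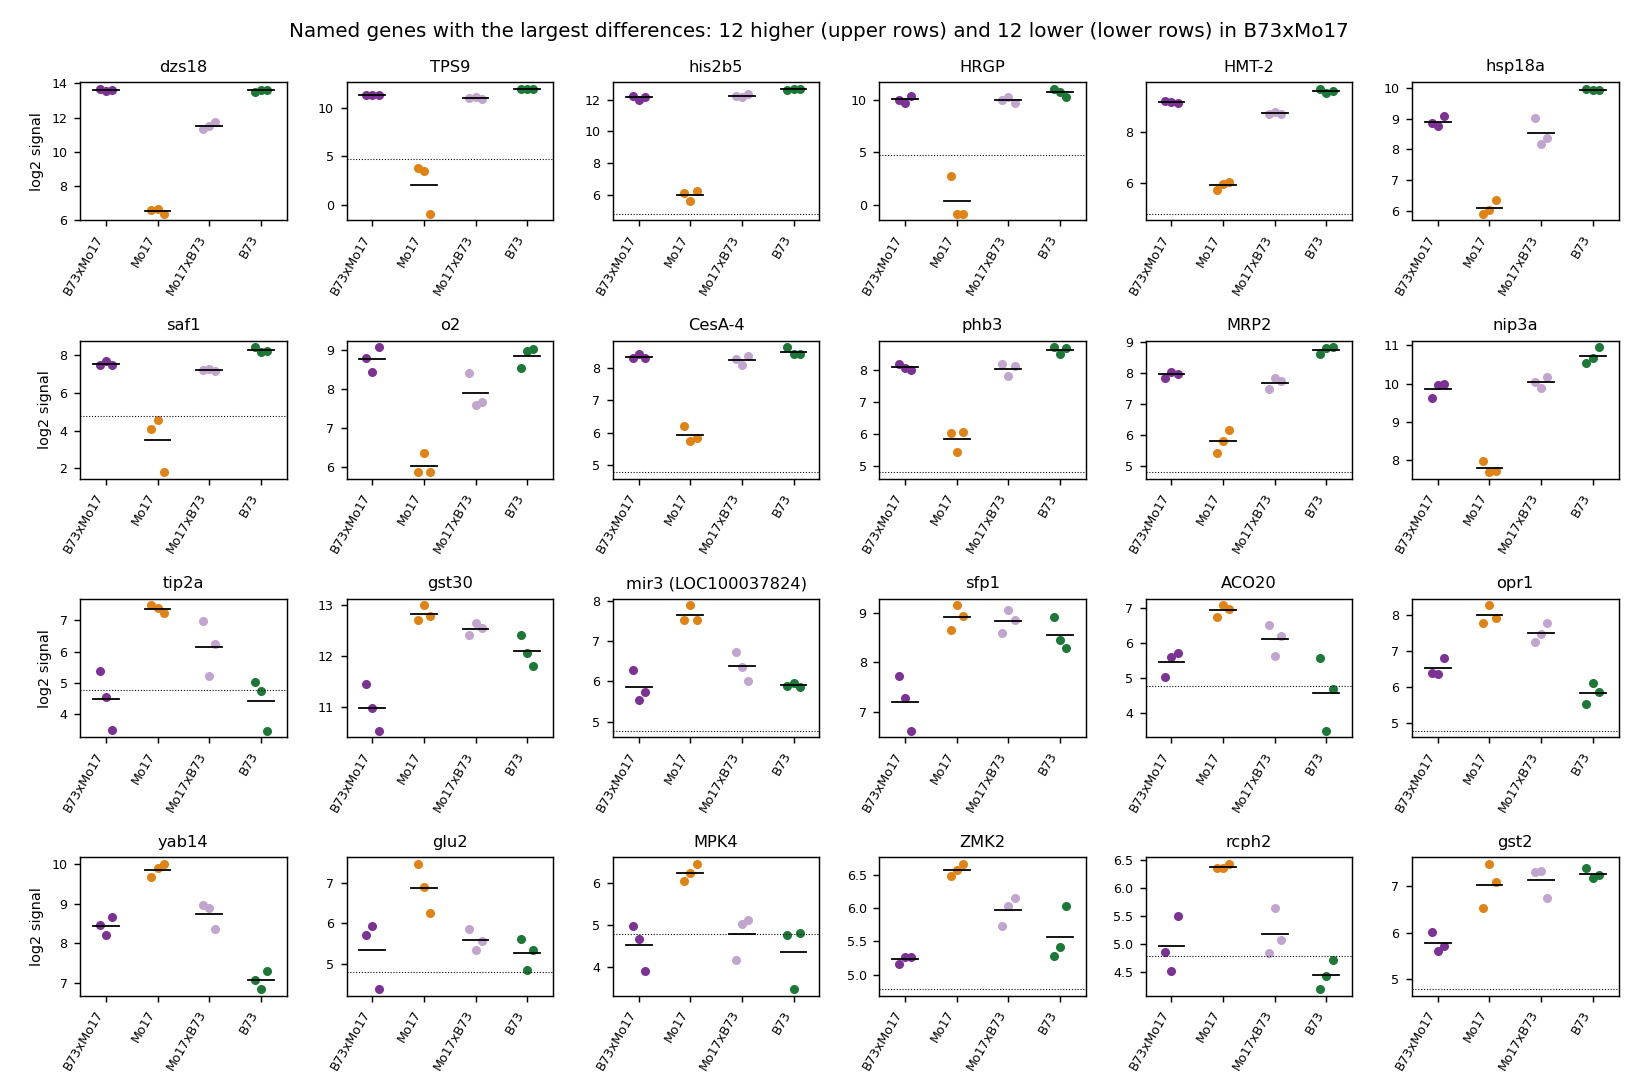
Log2 signal on each array (points, replicates 1 to 3 from left to right) and group mean (line) for the 12 named genes with the largest gains and the 12 with the largest losses in B73xMo17 against Mo17, with Mo17xB73 and B73 beside them. A dotted line marks the floor at 4.78 where values come near it. For all 24 genes the B73xMo17 and Mo17 points do not overlap, which was a condition for choosing them.

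The losses in the hybrid were smaller. Among named genes the largest was in tip2a, a water channel of the vacuole membrane, which read 5.38, 4.53 and 3.49 in B73xMo17 and 7.48, 7.40 and 7.23 in Mo17. The Mo17 arrays were tight and the hybrid arrays were spread around the floor. The groups did not overlap, which was a condition for naming each of the leading losses. The difference was -2.9 ± 0.53 (adjusted p = 0.00134), or 5.23-fold lower after the floor. The glutathione transferase gst30 was bright in both genotypes, with 11.45, 10.99 and 10.54 in B73xMo17 and 12.72, 13.00 and 12.80 in Mo17. Its hybrid level was 3.6-fold lower (-1.85 ± 0.19, adjusted p = 8.62e-06).

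The maize insect resistance gene mir3, a cysteine protease, averaged 5.86 ± 0.39 in B73xMo17 and 7.64 ± 0.2 in Mo17. The gene sfp1 averaged 7.21 ± 0.56 in B73xMo17 and 8.91 ± 0.25 in Mo17. The oxo-phytodienoate reductase opr1 averaged 6.52 ± 0.25 in B73xMo17 and 8.0 ± 0.25 in Mo17. The YABBY factor yab14, of a family that patterns lateral organs, averaged 8.44 ± 0.22 in B73xMo17 and 9.86 ± 0.17 in Mo17. These 4 genes were 3.44-fold, 3.26-fold, 2.79-fold and 2.68-fold lower in the hybrid, with adjusted p of 8.73e-05, 0.000193, 0.000173 and 4.39e-05. Their groups did not overlap, by the same rule for naming them.

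The other 6 leading losses were ACO20, an oxidase of ethylene synthesis, glu2, a beta-glucosidase, the kinase gene MPK4, the potassium channel ZMK2, the root cap gene rcph2 and the glutathione transferase gst2. Their levels in B73xMo17 were between 4.51 and 5.78 and in Mo17 between 6.25 and 7.03, close to the dim end of the array. The differences after the floor were between 2.38-fold and 2.81-fold. The calls of 2 of them depended on single arrays. ACO20 had an adjusted p of 0.0234 and lost its call without B73xMo17 replicate 1 (0.0848), Mo17 replicate 2 (0.0735) or Mo17 replicate 3 (0.0663). The glu2 call (adjusted p = 0.0157) was lost without B73xMo17 replicate 3 (0.0588) or Mo17 replicate 1 (0.0693).

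Most of the large differences were in probe sets with no gene in the annotation, as were 16168 of all 17621 probe sets. The unnamed probe set with the largest gain read 10.70, 10.65 and 11.04 in B73xMo17 and 3.84, 5.49 and 4.85 in Mo17, and the next read 10.20, 10.28 and 10.39 in B73xMo17 and 4.97, 4.63 and 3.43 in Mo17. After the floor these are 54.0-fold and 43.5-fold higher in the hybrid. In the other direction the unnamed probe set with the largest loss read 7.55, 7.56 and 9.20 in B73xMo17 and 11.88, 12.28 and 11.70 in Mo17, and the next read 5.66, 5.69 and 5.16 in B73xMo17 and 8.57, 9.20 and 9.24 in Mo17. Both were called lower, by 14.4-fold and 11.3-fold, and they are the only 2 probe sets more than 8-fold lower after the floor. All 4 had hybrid values that did not overlap those of Mo17, as the rule for naming them required.

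Gene groups were then described by counts over the brightest probe set of each gene, to be read against the same over all 975 named genes, of which 14.4% were higher and 12.2% lower. Of 8 zein genes, 4 were higher and 0 lower in B73xMo17, with a list median of 0.23. Beside dzs18 these were the alpha zein z1C2, known as floury2 (10.64 ± 0.07 in B73xMo17 and 9.78 ± 0.08 in Mo17, adjusted p = 0.0198), gz50 (0.54) and z1C1_20 (0.26). The count of higher zeins is not stable: it was 2 with arrays centred on their medians or with the floor, 1 with values as deposited, and between 1 and 4 when single arrays were left out. The count of lower zeins was 1 with arrays centred on their medians or with the collection date as a block. The z1C2 call was lost without B73xMo17 replicates 1 (0.0548) or 3 (0.0579) and without Mo17 replicates 2 (0.0554) or 3 (0.0601). The gz50 call was lost without B73xMo17 replicates 1 (0.105) or 3 (0.071) or Mo17 replicate 3 (0.118), and the z1C1_20 call without B73xMo17 replicate 1 (0.0832) or Mo17 replicate 1 (0.0761). Zeins are multigene families, and probe sets against them may share transcripts.

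Of 16 markers of starchy endosperm, with zeins among them, 6 were higher and 0 lower, and their summed linear signal was 83903 to 87022 in B73xMo17 and 57441 to 74365 in Mo17. Without dzs18 the sums of the other 15 were 71669 to 74182 in B73xMo17 and 57343 to 74263 in Mo17, which overlap. No marker was at 0. The part of endosperm tissue in the storage gene results was not tested. In whole embryos, fewer cells of a type and less RNA per cell cannot be told apart.

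Of 21 other endosperm genes, 4 were higher and 3 lower, with a list median of -0.21. The gains included o2 and its partner ohp1, an Opaque2 heterodimerizing bZIP factor (9.42 ± 0.12 in B73xMo17 and 8.09 ± 0.14 in Mo17, 2.53-fold). The losses included 2 basal layer antifungal proteins, bap1-b (9.36, 9.05 and 9.30 in B73xMo17 and 9.87, 10.52 and 10.28 in Mo17, adjusted p = 0.00178) and bap-1a (8.74 ± 0.32 in B73xMo17 and 9.42 ± 0.29 in Mo17, adjusted p = 0.0172). These are made in the transfer layer, through which the plant feeds the endosperm. Other genes of that layer were called higher in the hybrid: bap-3b (1.56, adjusted p = 0.0101, or 0.62 after the floor) and betl3 (0.69, adjusted p = 0.0163). The second probe set of bap1-b was lower by more, at -1.43. The bap-1a call was lost without B73xMo17 replicate 2 (0.0776) or Mo17 replicate 2 (0.0797). The summed signal of 13 transfer layer markers was 8912 to 11816 in B73xMo17 and 12079 to 16434 in Mo17, with 2 of them higher, 3 lower and 2 under the floor in both. Their part in the result was not tested.

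Of 26 genes of starch synthesis and sucrose cleavage, 6 were higher and 2 lower, with a list median of 0.06. The gene gss1, for a starch synthase of class II, averaged 6.67 ± 0.26 in B73xMo17 and 3.02 ± 0.3 in Mo17, where every array was under the floor, so that its gain is at least 3.7-fold. The sucrose phosphate synthase sps1 was higher by 1.12 ± 0.28 (adjusted p = 0.0103), at 5.96 ± 0.51 in B73xMo17 and 4.84 ± 0.23 in Mo17. The kernel genes sus2 for sucrose synthase (0.99), ss1 for starch synthase (0.8), wx1 for the granule-bound enzyme of amylose synthesis (0.79) and zpu1 for pullulanase (0.37) were also called higher. The wx1 call was lost without B73xMo17 replicates 1 or 3 or Mo17 replicates 1 or 3 (0.0704 to 0.128), and the zpu1 call without B73xMo17 replicate 3 or Mo17 replicates 2 or 3 (0.0626 to 0.101). In the other direction su2, the class II starch synthase behind the sugary2 mutant, read 11.55, 10.78 and 11.38 in B73xMo17 and 11.76, 12.38 and 11.85 in Mo17, a 1.69-fold difference whose groups come close but do not overlap. Its call (adjusted p = 0.0168) was lost without B73xMo17 replicate 2 (0.073) or Mo17 replicate 2 (0.0763). The vacuolar invertase ivr2 was called lower by at least 1.45-fold, with all its hybrid values under the floor.

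Among 10 genes for embryo globulins, oil-body proteins and late embryogenesis proteins, 3 were higher and 0 lower, with a list median of 0.27. A dimmer probe set of vp1, a gene of this list, was called lower (-0.39, adjusted p = 0.00689). Globulin glb3, a storage protein of the embryo, read 12.29, 12.24 and 12.33 in B73xMo17 and 10.82, 11.09 and 10.43 in Mo17, which is 2.84-fold (1.5 ± 0.14, adjusted p = 4.78e-06). The late embryogenesis gene emb5 read 10.75, 11.03 and 10.90 in B73xMo17 and 10.28, 9.10 and 9.01 in Mo17, which is 2.7-fold (1.43 ± 0.29, adjusted p = 0.00307). In Mo17 replicate 1 stood above the other 2 arrays for emb5, still below every hybrid array. The dehydrin dhn2 was higher by 0.54, and its other 2 probe sets by 0.67 and 0.74. Its brightest probe set lost the call without B73xMo17 replicate 1 (0.0511) or Mo17 replicate 3 (0.0598). The summed signal of the 10 embryo markers was 42733 to 44814 in B73xMo17 and 36511 to 44545 in Mo17, which overlap.

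**Figure D4:**
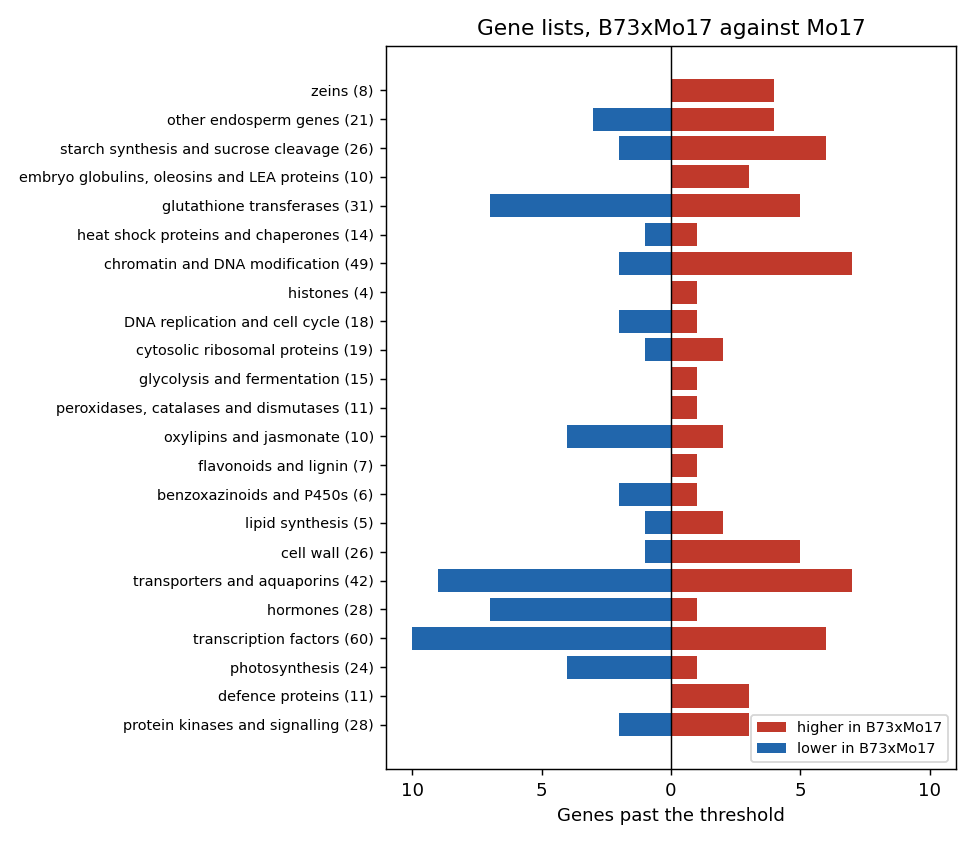
Number of genes in each list (size in parentheses) that were higher (bars to the right) or lower (bars to the left) in B73xMo17 than in Mo17 at an adjusted p under 0.05. The brightest probe set stands for each gene. Among lists with 3 or more calls, zeins, embryo proteins and defence proteins have them to the higher side only in this setting, while hormone genes have 1 higher and 7 lower.

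Glutathione transferases, which conjugate glutathione to toxic compounds, went both ways: of 31 genes 5 were higher and 7 lower, with a median of -0.38, or 0 after the floor, and 10 lay under the floor in both genotypes. The gains were led by gst28, at 7.03, 7.57 and 7.46 in B73xMo17 and 5.48, 3.67 and 6.32 in Mo17, a 3.55-fold gain after the floor. Its fitted difference of 2.2 was 1.45 without Mo17 replicate 2. gst6 followed at 9.31 ± 0.11 in B73xMo17 and 8.23 ± 0.25 in Mo17. The losses were led by gst30 and by gst2, which read 6.02, 5.61 and 5.72 in B73xMo17 and 6.53, 7.49 and 7.09 in Mo17 (-1.25 ± 0.24, adjusted p = 0.00195). Both gst30 and gst2 had hybrid values below every Mo17 value, as the rule for the leading losses required.

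Of 14 heat shock proteins and chaperones, hsp18a was higher and hsp22, a small heat shock protein of mitochondria, was lower (7.99 ± 0.42 in B73xMo17 and 9.10 ± 0.86 in Mo17, adjusted p = 0.04), and the list median was -0.18. With arrays centred on their medians, 5 were lower. The hsp22 call was lost without B73xMo17 replicate 1 (0.126) or 2 (0.117), Mo17 replicate 3 (0.149), Mo17xB73 replicate 3 (0.0519) or B73 replicate 2 (0.0527). Of 11 peroxidases, catalases and dismutases only the superoxide dismutase Sod4A passed, at 11.57 ± 0.09 in B73xMo17 and 10.61 ± 0.17 in Mo17, a 1.94-fold gain. All 3 defence proteins called among 11 were higher: TPS9, the pathogenesis-related gene prp2 (0.65 ± 0.17, adjusted p = 0.0131, lost without B73xMo17 replicate 1 at 0.0546 or Mo17 replicate 2 at 0.0592) and the cystatin cc7 (0.57). The defence list's median was 0.16.

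Genes of oxylipin and jasmonate synthesis, which make lipid-derived signals of wounding, went both ways. Of 10 genes 2 were higher and 4 lower, with a median of -0.68, or -0.28 after the floor. The allene oxide cyclase aoc1 averaged 11.18 ± 0.06 in B73xMo17 and 10.05 ± 0.35 in Mo17, with its other probe set also higher (1.38). The reductase opr7, which acts in jasmonate synthesis, averaged 8.23 ± 0.16 in B73xMo17 and 7.28 ± 0.06 in Mo17. The lower genes were the reductases opr1 and opr5 (opr5 read 6.39, 6.14 and 5.57 in B73xMo17 and 7.08, 7.38 and 7.13 in Mo17), the allene oxide synthase aos1 (-0.55) and the lipoxygenase lox1, under the floor in the hybrid, whose other probe set did not pass. After the floor the lox1 difference was -0.31 in place of -1.9 and did not pass (adjusted p = 0.071). Allene oxide synthase and cyclase act in consecutive steps, and here the synthase was lower and the cyclase higher in the hybrid.

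More hormone genes were called lower than higher: of 28 genes 1 was higher and 7 lower, with a median of -0.3, or -0.04 after the floor. With the values as deposited 0 passed as lower, although the differences of hk3 (-0.74), cko1 (-0.64), HP1 (-0.41) and ACO20 (-1.31) stayed close to those after normalization. With arrays centred on their medians 9 passed as lower, and with single arrays left out 3 to 8. The auxin-binding protein abp4 was the exception, at 9.57, 9.55 and 9.55 in B73xMo17 and 7.67, 7.66 and 7.56 in Mo17, a 3.79-fold gain with very little spread (1.92 ± 0.07, adjusted p = 3.69e-10). Of the 19 genes of the list that belong to cytokinin metabolism or response, tallied after their values were seen, 6 were lower, 0 higher and 13 did not pass. Their median was -0.35 before the floor, and the median after it was not taken. Beside ACO20, the lower ones were the receptor kinase hk3 (7.40 ± 0.24 in B73xMo17 and 8.20 ± 0.3 in Mo17, adjusted p = 0.00914), the degrading oxidase cko1 (-0.65), the phosphotransfer genes HP1 (-0.35) and HP3 (-0.24) and the response regulators RR9 (-0.42) and RR8 (-0.34). The calls of HP3, RR9 and RR8 were lost without Mo17 replicate 2 (0.0689 to 0.121), those of RR9 and RR8 also without B73xMo17 replicate 3 or Mo17 replicate 3 (0.0831 to 0.121), that of RR9 without B73xMo17 replicate 1 (0.125) and that of RR8 without B73xMo17 replicate 2 (0.103).

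Of 26 cell wall genes 5 were higher and 1 lower, with a median of -0.12. Counted by any probe set, 6 were higher and 2 lower. Beside HRGP and CesA-4 the expansin expB3, a wall-loosening protein, was higher by 1.37, and the cellulose synthases CesA-9 and cesa3 by 0.37 and 0.23. The cesa3 call was lost without B73xMo17 replicates 1 (0.069) or 2 (0.0684) or Mo17 replicate 2 (0.061). Dimmer probe sets of 2 more expansins, named here after their values were seen, were also called. Those of expA4 were higher by 0.82 (adjusted p = 6.47e-05) and 1.89 (6.79e-06), and that of expB8 was lower (-0.57, adjusted p = 0.0374). The expansin expB7 was lower, at 4.54 ± 0.51 in B73xMo17 and 5.56 ± 0.32 in Mo17 (adjusted p = 0.0408). That call was lost with the collection date as a block (0.0517) and without B73xMo17 replicate 1 (0.0746) or 2 (0.157), Mo17 replicate 1 (0.118) or 2 (0.113), Mo17xB73 replicate 1 (0.0522) or B73 replicate 2 (0.0529).

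Transport genes again went both ways, with 7 of 42 higher and 9 lower and a median of -0.28, or -0.01 after the floor. Of 28 water channels in the list, tallied after their values were seen, 6 were higher, 4 lower and 18 did not pass. The channels nip3a, the plasma membrane channel pip2-5 (7.87 ± 0.31 in B73xMo17 and 6.19 ± 0.2 in Mo17, 3.22-fold), pip2f (1.0), tip1 (0.71), pip2c (0.45) and Lsi6 (1.49) were higher, while tip2a, pip2d (-0.8), TIP2-3 (-1.16) and PIP1-3 (-0.39) were lower. The calls of Lsi6 and TIP2-3 were lost after the floor (0.344 and 0.102), where their differences were 0.45 and -0.29. The pip2c call (adjusted p = 0.0498) was lost with the collection date as a block (0.0574) and without B73xMo17 replicates 1 or 3, any 1 of the 3 Mo17 or the 3 B73 arrays, or Mo17xB73 replicate 3 (0.0537 to 0.183). The Lsi6 call was also lost without B73xMo17 replicates 1 or 3 or Mo17 replicates 1 or 3 (0.067 to 0.104), the TIP2-3 call without B73xMo17 replicates 1 or 2 or Mo17 replicates 1 or 3 (0.0562 to 0.102), and the PIP1-3 call without B73xMo17 replicates 2 or 3 or Mo17 replicates 1 or 2 (0.0501 to 0.112). The potassium channel ZMK2 read 5.16, 5.27 and 5.27 in B73xMo17 and 6.49, 6.57 and 6.67 in Mo17. The proton pumps mha4 (-0.73) and mha1 (-0.46), which energize plasma membrane transport, were both lower. The pip2d call was lost without B73xMo17 replicate 2 or Mo17 replicates 2 or 3 (0.0571 to 0.0922), and so was the mha1 call (0.0606 to 0.086). The number of transport genes called lower was 1 with values as deposited and 3 to 9 with single arrays left out.

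Of 60 transcription factors 6 were higher and 10 lower, with a median of -0.24, or 0 after the floor, and 22 lay under the floor in both genotypes. LOB21, of the family that sets organ boundaries, read 5.90, 6.20 and 6.28 in B73xMo17 and 0.75, 1.51 and 0.27 in Mo17. Every Mo17 value was far under the floor, so the gain is at least 2.53-fold, against a fitted difference of 5.28. The MYB factor rough sheath2 (rs2), which keeps knotted-type homeobox genes silent in leaves, was 1.77-fold higher, at 8.63 ± 0.22 in B73xMo17 and 7.81 ± 0.14 in Mo17. Losses were led by yab14 and by dbf2, a drought-response element binding factor (4.44 ± 0.09 in B73xMo17 and 5.75 ± 0.55 in Mo17, adjusted p = 0.0378). All 3 hybrid values of dbf2 lay under the floor. After the floor its difference was -0.97 and did not pass (adjusted p = 0.105). The dbf2 call was lost without any 1 of the 3 B73xMo17 arrays (0.0763 to 0.0918), without Mo17 replicate 1 (0.123) or 3 (0.115), or without B73 replicate 2 (0.0505). The count of lower factors was 1 with values as deposited, 5 with the floor and 4 to 9 with single arrays left out.

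Chromatin genes, 49 in all, had 7 higher and 2 lower with a median of -0.01, and that balance turned with the scaling: 2 were higher and 6 lower with arrays centred on their medians. The Polycomb gene fie1, whose protein belongs to a complex that methylates histone H3, averaged 8.55 ± 0.37 in B73xMo17 and 7.43 ± 0.42 in Mo17 (1.12 ± 0.22, adjusted p = 0.00275). Its hybrid values ran from 8.16 to 8.88 and its Mo17 values from 7.11 to 7.91. The histone acetyltransferase hac108 was 1.69-fold higher, at 9.36 ± 0.06 in B73xMo17 and 8.60 ± 0.15 in Mo17. The other 5 gains were small, from 0.25 to 0.3, in 4 methyl-CpG binding genes (mbd101, mbd108, mbd109 and mbd111) and the nucleosome assembly gene nfa101. All 5 lost their call without Mo17 replicate 2 (0.0531 to 0.0851), and all but mbd108 also without other single arrays (up to 0.161, for nfa101 without Mo17 replicate 3). The deacetylases hda106 (-0.47, adjusted p = 0.0336) and hdt103 (-0.17, adjusted p = 0.0448) were lower, and the other 3 probe sets of hdt103 did not pass, with differences from 0.06 to 0.25. The hda106 call was lost without any 1 of the 6 arrays of the comparison (0.0573 to 0.0922), and the hdt103 call without B73xMo17 replicates 1, 2 or 3, Mo17 replicates 1 or 3, Mo17xB73 replicates 2 or 3, or B73 replicate 2 (0.0501 to 0.178).

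Genes of growth passed in both directions. Of 18 genes of DNA replication and the cell cycle 1 was higher and 2 lower (median -0.11): the D-type cyclin cycD1, at 6.98, 7.34 and 7.33 in B73xMo17 and 4.21, 5.74 and 6.24 in Mo17, the A-type cyclin cyc1 (-0.37, adjusted p = 0.0397) and the replication clamp pcna2 (-0.33, adjusted p = 0.0156). The cycD1 difference of 1.82 was 1.23 without Mo17 replicate 1. The cyc1 call was lost without B73xMo17 replicates 1, 2 or 3, Mo17 replicates 2 or 3, or B73 replicate 2 (0.0543 to 0.164), and the pcna2 call without B73xMo17 replicate 1 (0.0687) or Mo17 replicate 3 (0.0693). Of 19 cytosolic ribosomal proteins 2 were higher (rps13 by 0.64 and rpl30 by 0.53) and rpl39 was lower (-0.22), with a list median of 0.02. The rpl39 call (adjusted p = 0.0173) was lost without B73xMo17 replicates 1 (0.0516) or 3 (0.054) or Mo17 replicate 3 (0.0682), and its second probe set, at -0.23, did not pass.

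Of 15 genes of glycolysis and fermentation only the alcohol dehydrogenase adh2 passed by its brightest probe set, with a list median of 0.04. It averaged 9.92 ± 0.14 in B73xMo17 and 9.54 ± 0.07 in Mo17. Dimmer probe sets of pdc2, a gene of this list, were called in opposite directions. In 1 of them the level was 7.76 in B73xMo17 and 4.71 in Mo17 (3.06, adjusted p = 2.44e-07). Another was lower in the hybrid (-0.93, adjusted p = 0.0321). Of 7 flavonoid and lignin genes only the flavanone hydroxylase fht1 passed (1.15 ± 0.25, adjusted p = 0.00509), with a median of -0.02. Of 5 lipid genes the transfer protein plt2 was 2.44-fold higher, at 10.94, 10.94 and 10.95 in B73xMo17 and 9.91, 9.43 and 9.63 in Mo17. The acetyl-CoA carboxylase Acc-1 (0.22, adjusted p = 0.0378) was also higher and the desaturase FAD8 (-0.79, adjusted p = 0.0277) lower, with a list median of 0.15. The Acc-1 call was lost without any 1 of the 3 B73xMo17 arrays or Mo17 replicates 2 or 3 (0.0535 to 0.137), and its second probe set did not pass. The FAD8 call was lost without B73xMo17 replicates 1 or 3 or Mo17 replicates 2 or 3 (0.0509 to 0.124).

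Benzoxazinoids are the main defence metabolites of young maize. Of 6 genes of this list 1 was higher and 2 lower, with a median of -0.4: the indole-producing lyase igl1 was higher by 0.51 (adjusted p = 0.00571), and bx6, a dioxygenase of the pathway, read 12.49, 12.57 and 12.58 in B73xMo17 and 13.00, 12.98 and 13.02 in Mo17. The bx6 difference of -0.45 ± 0.06 was small but well outside the spread on either side (adjusted p = 0.000171), and its other probe set was also lower (-0.33). The other lower gene was glu2.

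Of 24 photosynthesis genes 1 was higher and 4 lower, with a median of -0.17, or 0 after the floor. The plastid sigma factor sig3 read 6.72, 7.03 and 6.71 in B73xMo17 and 1.63, 5.17 and 3.90 in Mo17, a 3.74-fold gain after the floor. Its fitted difference of 3.25 was 2.29 without Mo17 replicate 1 and 4.05 without replicate 2. The thylakoid protein transport gene hcf106 was lower by 0.67 on the log2 scale (adjusted p = 0.00208), and the malate dehydrogenase mdh6 was lower at 7.97 ± 0.26 in B73xMo17 and 8.49 ± 0.11 in Mo17. The mdh6 call (adjusted p = 0.0286) was lost without B73xMo17 replicates 2 (0.0528) or 3 (0.119) or Mo17 replicates 1 (0.0891) or 2 (0.0716). The summed signal of the 24 genes was 13396 to 13931 in B73xMo17 and 13760 to 15071 in Mo17, which overlap.

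Of 28 genes of kinases and signalling 3 were higher and 2 lower, with a median of -0.02. A calmodulin gene, for a calcium sensor, averaged 7.0 ± 0.38 in B73xMo17 and 5.39 ± 0.05 in Mo17 (3.05-fold), while its second probe set lay under the floor in both and did not pass. The gene listed as PK was higher by 0.57 (adjusted p = 0.0158) and lost its call without B73xMo17 replicate 3 (0.0614) or Mo17 replicate 1 (0.0536). The small GTPase rop1 was lower by 0.34 on the log2 scale (adjusted p = 0.0446). Its call was lost without any 1 of the 3 B73xMo17 or the 3 B73 arrays, Mo17 replicates 2 or 3, or Mo17xB73 replicate 1 (0.0513 to 0.186).

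The named genes were placed relative to the seed parent in the same fit, where 1930 of all probe sets (11%) differed between B73xMo17 and B73. Of the 12 leading gains, 6 were called lower in the hybrid than in B73: his2b5 (-0.54 ± 0.12, adjusted p = 0.0119), HMT-2 (-0.44), hsp18a (-1.04), phb3 (-0.57, adjusted p = 0.048), MRP2 (-0.8) and nip3a (-0.88). Whether calls of single genes against B73 held with other settings or with single arrays left out was not tested. The spread in this fit is shared with the Mo17 arrays, which scattered under the floor for TPS9, HRGP and saf1. TPS9 (-0.66 ± 0.85, adjusted p = 0.721) and saf1 (-0.73 ± 0.5, adjusted p = 0.443) did not pass, although their hybrid values lay below every B73 value. HRGP did not pass either (-0.66 ± 0.7, adjusted p = 0.645). For dzs18 the levels were 13.64 ± 0.06 in B73xMo17 and 13.59 ± 0.06 in B73, a difference of 0.04 ± 0.1 that did not pass (adjusted p = 0.863). Both levels are close to the highest normalized value (14), and whether the probes were saturated there was not tested. For o2 they were 8.79 ± 0.32 in B73xMo17 and 8.86 ± 0.26 in B73. That difference of -0.07 ± 0.23 did not pass either (adjusted p = 0.911). Some genes were lower in the hybrid than in either inbred: gst30 (10.99 ± 0.46 in B73xMo17, 12.10 ± 0.3 in B73, adjusted p = 0.00155), gst2 (5.78 ± 0.21 in B73xMo17, 7.27 ± 0.12 in B73, adjusted p = 0.000976) and sfp1 (7.21 ± 0.56 in B73xMo17, 8.56 ± 0.32 in B73, adjusted p = 0.00245). They were picked as leading losses against Mo17, and the same B73xMo17 arrays enter this comparison. In Mo17xB73 gst30 averaged 12.54, gst2 7.14 and sfp1 8.84, each between its Mo17 and B73 means.

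The reciprocal hybrid separated a smaller set of genes. Between B73xMo17 and Mo17xB73 153 of all probe sets (0.868%) differed, a count that fell to 72 and 61 without B73xMo17 replicates 2 and 3, and to 95, 57 and 51 without Mo17xB73 replicates 1, 2 and 3. For 11 of the 12 leading gains the difference between the hybrids did not pass. The largest of these 11 differences was in o2, at 8.79 ± 0.32 in B73xMo17 and 7.91 ± 0.46 in Mo17xB73 (0.88 ± 0.23, adjusted p = 0.13). HMT-2 came closest to the threshold (0.43 ± 0.1, adjusted p = 0.0732). The histone gene his2b5 averaged 12.13 ± 0.13 in B73xMo17 and 12.24 ± 0.1 in Mo17xB73 (-0.11 ± 0.12, adjusted p = 0.814), and CesA-4 averaged 8.32 ± 0.07 in B73xMo17 and 8.22 ± 0.14 in Mo17xB73 (0.1 ± 0.13, adjusted p = 0.853). TPS9 differed by 0.3 ± 0.85, saf1 by 0.34 ± 0.5 and HRGP by 0.03 ± 0.7, with the wide errors of genes that are dim in Mo17. The B73xMo17 values of TPS9 and saf1 lay above every Mo17xB73 value, while those of HRGP overlapped. For dzs18 the hybrid with B73 as seed parent was higher, at 13.64 ± 0.06 in B73xMo17 and 11.53 ± 0.21 in Mo17xB73 (2.11 ± 0.1, adjusted p = 2.92e-07). The calls for dzs18 and gst30 were kept under each of the 19 alternatives, as was that for the unnamed probe set with the next largest loss from Mo17.

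**Figure D5:**
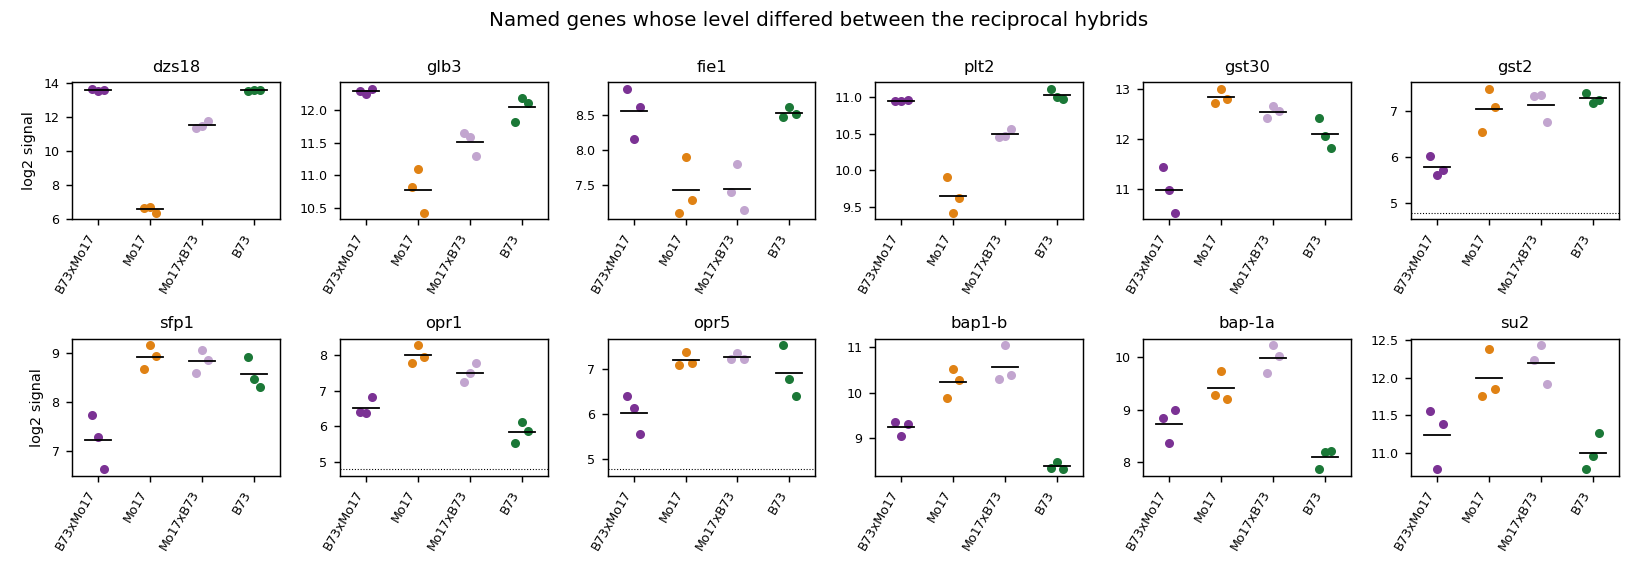
Log2 signal on each array (points, replicates 1 to 3 from left to right) and group mean (line) for the 12 named genes that differed between B73xMo17 and Mo17xB73. In dzs18, glb3, fie1 and plt2 the B73xMo17 points lie above those of Mo17xB73, and in the other 8 genes they lie below.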

How the data were processed

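RNA of 12 embryo samples was hybridised to 1-colour Affymetrix maize arrays. The deposited values are linear intensity signals per probe set. Per the submitters' processing notes, they were made with MAS5 (version not given). Whether the authors scaled arrays to each other is not given in the sources used here, and detection calls were not used. The 113 AFFX control probe sets were left out, and the other 17621 (with 66 reporter gene probe sets among them) were log2 transformed and quantile normalized over 12 arrays. Group means were fitted with limma 3.58.1 in R 4.3.3 (lmFit, eBayes with trend), with 8 residual degrees of freedom. P-values are two-sided and Benjamini-Hochberg adjusted over 17621 probe sets, threshold 0.05. The fit was also run on simulated normal data, in which all groups shared the same spread for a probe set. That differs from genes that scatter under the floor in Mo17 alone, and no result above rests on it. The floor, at the 25th percentile of the normalized data, equals 27.6 signal units. Precision is limited by how many arrays there are. A signal depends on how well the probes match a transcript, and whether B73 and Mo17 alleles bind alike was not tested.

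Gene names came from the platform annotation: 1452 probe sets had 1 gene, 1 had several and 16168 had none. Of 1108 genes 1060 matched the RefSeq table of Zm-B73-REFERENCE-NAM-5.0. Most of their current symbols are locus numbers, so a gene with a synonym that is not a clone or model code counted as named (975). Named genes are the 12 with the largest gains and the 12 with the largest losses after the floor, among called genes whose groups do not overlap, up to 2 called genes in each direction of each of 23 lists, and 2 unnamed probe sets in each direction. Other called genes given with a difference alone were named after their values were seen. The members and lists were chosen with earlier results of these data known.

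Per the labels, a replicate number marks a shared collection date, which pairs the samples. Same-numbered B73xMo17 and Mo17 arrays deviated from their group means with correlations of -0.01, -0.03 and -0.01 across probe sets, and in the other pairs of groups with -0.07 to 0.24. The date was used as a block as an alternative. The other alternatives were median centring, values as deposited, the floor before the fit, leaving out dim probe sets, no intensity trend, the 6 arrays alone and each array left out. The labels call the replicates biological.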

Additional observations from a re-analysis of the deposited data

Results flagged for a closer look

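For 12 named genes and 2 unnamed probe sets the difference from Mo17 was not the same in both hybrids, by limma's test of B73xMo17 minus Mo17xB73 over all 17621 probe sets. This difference was 2.11 for dzs18 (adjusted p = 2.92e-07), 0.77 for glb3 (0.0259), 1.1 for fie1 (0.0393) and 0.45 for plt2 (0.0443). It was -1.55 for gst30 (adjusted p = 0.0019), -1.63 for sfp1 (0.00646), -1.36 for gst2 (0.0205), -1.33 for bap1-b (0.00464), -1.25 for bap-1a (0.00614), -1.23 for opr5 (0.0494), -0.99 for opr1 (0.0469) and -0.96 for su2 (0.0478). For the unnamed probe set with the largest loss from Mo17 it was -2.48 (adjusted p = 0.0197), and for the one with the next largest loss it was -2.59 (0.000995). The Polycomb gene fie1 averaged 8.55 ± 0.37 in B73xMo17, 7.45 ± 0.33 in Mo17xB73 and 7.43 ± 0.42 in Mo17 (SD, n = 3 each), with B73 at 8.53 ± 0.07. The transfer layer gene bap1-b averaged 9.24 ± 0.16 in B73xMo17, 10.57 ± 0.41 in Mo17xB73, 10.22 ± 0.33 in Mo17 and 8.38 ± 0.09 in B73.

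The calls for dzs18, gst30 and the second of these unnamed probe sets were kept under all 19 alternatives. Those for bap1-b, bap-1a and sfp1 were lost in 1, 2 and 2 of them, when the variance had no trend or the floor was set before the fit. The others rest on single arrays. Calls were lost in 6 alternatives for the first of them (without B73xMo17 replicates 1 or 2 or Mo17xB73 replicates 2 or 3 among them, 0.0634 to 0.0876), in 7 for gst2 (without B73xMo17 replicates 2 or 3 or Mo17xB73 replicates 1 or 2, 0.0673 to 0.0819) and in 8 for glb3 (without any 1 B73xMo17 array or Mo17xB73 replicates 2 or 3, 0.0669 to 0.127). They were lost in 11 for fie1, 13 for plt2, 14 for opr1, 14 for opr5 and 16 for su2, with arrays of all 4 groups among those whose removal ended the call, and for su2 also with the collection date as a block (0.0725). Groups of 3 arrays were not tested for outlying samples.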

How the results depend on the processing

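The count of 3931 probe sets was 3400 to 4492 under median centring, the floor before the fit, leaving out dim probe sets, the date as a block, no variance trend and the 6 arrays alone. With the values as deposited, which keep the differences in median signal between arrays, it was 1225 (986 higher and 239 lower). Without the floor 865 of these were at least 2-fold higher and 170 at least 2-fold lower, against 790 and 359 after normalization. Why fewer passed as deposited was not tested. Leaving out each array gave 3042 to 4029 in all, 1622 to 1927 higher and 1370 to 2102 lower. With the replicate block the main count was 4172, and the block ended the calls of expB7 (adjusted p = 0.0517) and pip2c (0.0574) and, between the hybrids, of su2 (0.0725). The count between the reciprocal hybrids, 153, was 42 as deposited, 76 with the floor, 39 without the trend, and 51 to 144 with single arrays left out. That against B73, 1930, was 492 as deposited and 1360 to 2025 with single arrays left out. Of 76 genes and probe sets named by rule, 47 kept their call with the values as deposited, 62 without the trend, 66 with the floor, 72 with median centring and 62 to 75 with single arrays left out, and none reversed. Leaving out single arrays gave 4 to 8 glutathione transferases lower (7 with all arrays), 2 to 7 chromatin genes higher (7), and 4 to 9 transcription factors lower (10). The cause was not tested. Low signals limit the size of gains against Mo17 levels under the floor: 307 of the 1924 higher probe sets had such a mean, and 117 called probe sets were under it in both genotypes.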

Other observations

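Some genes outside the lists also differed, and the ones given here were named after their values were seen. They are single genes, with no count of the others of their pathways. The homocysteine methyltransferase hmt4 was higher in the hybrid, at 10.98, 11.10 and 11.20 in B73xMo17 and 10.04, 8.73 and 8.88 in Mo17 (1.88 ± 0.29, limma adjusted p = 0.000332). The serine acetyltransferase sat3, which makes the precursor of cysteine, was higher at 9.24 ± 0.14 in B73xMo17 and 8.26 ± 0.06 in Mo17. The gene aprl1, named for likeness to the reductase of sulfate assimilation, was lower at 10.60 ± 0.28 in B73xMo17 and 11.79 ± 0.12 in Mo17 (-1.18 ± 0.15). The values of the 3 genes did not overlap between the genotypes, and their calls were kept in each alternative.

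The farnesyl pyrophosphate synthase fps1 was higher at 12.09, 11.83 and 12.07 in B73xMo17 and 10.72, 11.39 and 10.74 in Mo17, and the squalene synthase sqs1 was higher at 9.47 ± 0.06 in B73xMo17 and 8.39 ± 0.21 in Mo17. The glutamine synthetase gln5, an enzyme of ammonium assimilation, was 2.95-fold higher. A second locus annotated as mir3 was lower too, at 6.95, 6.96 and 6.89 in B73xMo17 and 8.03, 8.13 and 8.07 in Mo17. Both loci carry the name of an insect resistance protease, and whether their probe sets separate them was not tested.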
